A study of Mus musculus with 10 samples.

Results

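The genes described here are 50 genes of DNA replication and mitosis, read in whole lung tissue of mice that had received house dust mite (HDM) extract, PBS, or HDM with nafamostat. The list holds well known S phase and G2/M genes and was matched to the panel by gene symbol. The rule that defines it uses no measured value, but the list was drawn up with earlier results of these data known. Of the 50 genes, 48 were found among the 23930 targets of the panel, while Ccnb1 (cyclin B1) and Pcna (the sliding clamp of the replication fork) were not found under these symbols and were not analysed here. Rrm2, the small subunit of ribonucleotide reductase, had 1 count in 1 PBS library and 0 in the others, and Stmn1, a microtubule destabilizing protein, had 0 to 4 counts per library. Each gene was read by 1 amplicon, so counts this low do not show that these 2 genes were not expressed. Both stayed under the filter of 30 counts summed over the libraries compared, so 46 genes were tested in each comparison.

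All mice were wild-type female BALB/c mice, 8 to 9 weeks old when purchased. The PBS group (4 libraries) received PBS intranasally, the HDM group (3 libraries) an extract of Dermatophagoides pteronyssinus, and the HDM + nafamostat group (3 libraries) the same extract with nafamostat, an inhibitor of serine proteases, given as an intraperitoneal injection of 20 mg/kg, 30 minutes ahead of every instillation. Mice were instilled 2 times a week. The duration was 3 weeks according to methods and labels and 6 weeks according to figure legends. For the extract, the methods state 10 μg (30 μl) and the labels 10 mg (30 ml). Nafamostat was dissolved in 3% acetic acid in PBS, and figure legends of other measurements give vehicle for HDM mice without nafamostat and PBS alone for controls. The methods list HDM and HDM + vehicle as separate groups, and the libraries are labelled only HDM. For the mice sequenced here the use of vehicle is not stated, so the HDM and HDM + nafamostat groups may also differ in vehicle. The RNA was taken from the left lobe (upper part), in separate experiments whose assignment to libraries is not given. The Ion AmpliSeq panel reads 1 amplicon per gene, and levels are given as CPM, counts per 1000000 counts of the library after scaling by TMM (trimmed mean of M values).

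Cells that enter S phase activate cyclin E and the E2F transcription factors, which switch on the genes for replication licensing, DNA synthesis and nucleotide supply. Later, cyclin A, cyclin B and the kinase Cdk1 drive mitosis, in which kinesins, kinetochore proteins, Aurora and Polo kinases and the spindle checkpoint separate the chromosomes. Cells at rest keep most of these genes at a low level. In a resting adult lung few cells divide, whereas in allergic inflammation lymphocytes, macrophages and epithelial cells can all do so. In RNA from a whole piece of lung, more dividing cells and more RNA per dividing cell cannot be told apart.

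Many of these genes carry one of a pair of known control elements just before their start site. The cell cycle genes homology region (CHR, searched as TTTGAA on both strands) is bound by the MuvB complexes that act on mitotic genes. The E2F element was searched on both strands as TTTCCCGC, TTTGGCGC, TTTCGCGC or TTTGCCGC, and 2 matches can overlap where they lie on opposite strands. The RefSeq windows used reach from 250 bases before to 50 bases after each start site on GRCm38.p6, and 41 of the 50 genes had one. The windows of 6 genes are shown because they give the 2 kinds of element side by side. Each line gives the 200 bases before the start site, 5′ to 3′ in the direction of the gene, with matches to the CHR and E2F letters in capitals. Mcm7 has a second, downstream start site that is not shown.
Cdk1, chr10:69352913-69353112, minus strand: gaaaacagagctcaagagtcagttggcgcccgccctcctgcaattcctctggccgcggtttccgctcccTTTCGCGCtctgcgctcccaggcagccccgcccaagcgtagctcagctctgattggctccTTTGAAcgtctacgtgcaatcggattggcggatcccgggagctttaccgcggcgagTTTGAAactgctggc
Top2a, chr11:99024190-99024389, minus strand: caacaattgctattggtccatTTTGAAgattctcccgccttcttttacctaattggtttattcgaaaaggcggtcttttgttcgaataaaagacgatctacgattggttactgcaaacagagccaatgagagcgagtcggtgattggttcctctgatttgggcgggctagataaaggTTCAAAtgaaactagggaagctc
Ube2c, chr2:164769729-164769928, plus strand: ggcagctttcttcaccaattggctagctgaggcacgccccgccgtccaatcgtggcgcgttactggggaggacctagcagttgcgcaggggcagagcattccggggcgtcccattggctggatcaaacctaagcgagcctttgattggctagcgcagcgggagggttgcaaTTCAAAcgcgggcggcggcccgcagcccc
Mcm5, chr8:75109309-75109508, plus strand: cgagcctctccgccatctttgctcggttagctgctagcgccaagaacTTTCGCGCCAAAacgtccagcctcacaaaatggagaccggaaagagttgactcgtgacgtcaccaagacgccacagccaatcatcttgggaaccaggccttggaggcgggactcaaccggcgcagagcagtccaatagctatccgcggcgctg
Mcm6, chr1:128359706-128359905, minus strand: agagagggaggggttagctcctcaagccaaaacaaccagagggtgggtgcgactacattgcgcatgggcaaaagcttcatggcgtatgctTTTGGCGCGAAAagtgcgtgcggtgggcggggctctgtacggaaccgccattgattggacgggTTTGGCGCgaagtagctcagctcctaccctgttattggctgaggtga
Mcm7, chr5:138171884-138172083, minus strand: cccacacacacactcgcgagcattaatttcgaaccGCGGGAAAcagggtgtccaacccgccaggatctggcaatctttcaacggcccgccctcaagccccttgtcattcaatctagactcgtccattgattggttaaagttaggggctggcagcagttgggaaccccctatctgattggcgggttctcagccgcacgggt

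The mitotic genes Cdk1 and Top2a each held 2 CHR matches and Ube2c held 1, at positions −15, −23 and −29 from the start site for the ones nearest to it. Cdk1 also held an E2F match. The genes of the replicative helicase Mcm5, Mcm6 and Mcm7 held E2F matches and no CHR match. Some genes had more than 1 window, and a gene was counted if any of its windows held a match. Among the 41 genes with a window, 51.2% held the CHR letters, against 20.2% of 27025 genes, and 22% held the E2F letters, against 2.6%. The CHR letters were in 19 of 25 genes of the 4 mitotic roles and in 2 of 16 genes of the replication, nucleotide and G1/S roles. The E2F letters were in 3 of those 25 and in 6 of those 16. CCAAT, read on both strands, was in 33 of the 41 genes (80.5%) against 41.1% of all genes with a window. These are matches of letters only, and binding was not measured.

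In lungs of HDM-sensitized mice, 36 of the 46 tested cell cycle genes were higher than in PBS lungs and 0 were lower at an adjusted p under 0.05 in edgeR's quasi-likelihood test. Among all 14608 genes tested in this comparison, 15.3% were higher and 14.2% were lower. At an unadjusted p under 0.05, 41 of the 46 were higher (20.3% of all genes) and 0 were lower (19.9%), and DESeq2 gave 37 and 0. A change of at least 2-fold was reached by 32 of the 36 (7.28% of all genes tested), and in 37 of the 46 every HDM library lay above every PBS library (19.3% of all genes). The median log2 fold change of the 46 genes was 1.48, with 45 of 46 above 0, against a median of 0.02 over all genes tested. Mcm10, Ttk and Espl1 reached the filter only together with the HDM libraries, and of these Mcm10 is among the 36. By role, the median was 1.83 for G2/M cyclins and mitotic kinases, 1.77 for chromosome structure, 1.60 for spindle checkpoint and anaphase, 1.39 for spindle, kinetochore and cytokinesis, 1.40 for nucleotide supply, 1.25 for G1/S control and 1.02 for replication licensing and fork. Differences between roles were not tested.

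In HDM + nafamostat lungs, the levels of 45 of the 46 genes overlapped with those of HDM lungs, and in Mcm4 all HDM + nafamostat libraries were above all HDM libraries (12.7% of all genes were higher without overlap and 12.8% lower). In this comparison, 0 of 46 were higher and 0 were lower at an adjusted p under 0.05 in edgeR's quasi-likelihood test, whereas 0.951% of the 14413 genes tested were higher and 1.97% were lower. DESeq2 also gave 0 in both directions. At an unadjusted p under 0.05, 2 genes were higher (Rrm1 and Uhrf1) and 5 were lower (Tyms, Tk1, Ccne2, Ccnb2 and Mad2l1), against 9.99% and 11.4% of all genes. The median log2 fold change was −0.08 over the 46 genes and −0.01 over all genes. It ranged from −0.22 to 0.12 when single libraries were left out, and the highest value came without HDM + nafamostat replicate 1. The 95% confidence intervals of single genes were −0.43 to 0.40 for Cdk1, −0.54 to 0.57 for Top2a and −0.93 to 0.54 for Mki67 on the log2 scale, so a 2-fold difference in either direction lay outside these 3 intervals. It did not for every gene. The intervals of Ccne2 (−1.55 to −0.15), Hmmr (−1.65 to 0.19) and Uhrf1 (0.08 to 1.36), among others, held a 2-fold difference.

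In HDM + nafamostat against PBS, 38 of 46 genes were higher and 0 were lower at an adjusted p under 0.05 in edgeR's quasi-likelihood test, while 8.73% of the 14079 genes tested were higher and 5.53% lower. At an unadjusted p under 0.05, 40 were higher (14.9% of all genes) and 0 lower (12.7%), and DESeq2 gave 38 and 0. Of the 38, 32 differed by at least 2-fold (4.62% of all genes), and in 32 of the 46 the groups did not overlap (13.8%). The median log2 fold change was 1.29, with 46 of 46 above 0, against −0.01 over all genes. Mcm10, Ttk and Espl1 reached the filter only together with the HDM + nafamostat libraries, and of these Mcm10 is among the 38. This comparison uses the same 4 PBS libraries as HDM against PBS, and the same HDM + nafamostat libraries as the comparison with HDM. It depended more on single libraries, since 22 genes passed without HDM + nafamostat replicate 2 and 39 passed without replicate 1 of that group. Of the 38 genes, 19 passed whichever single library was left out, against 29 of the 36 for HDM against PBS.

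**Figure D1:**
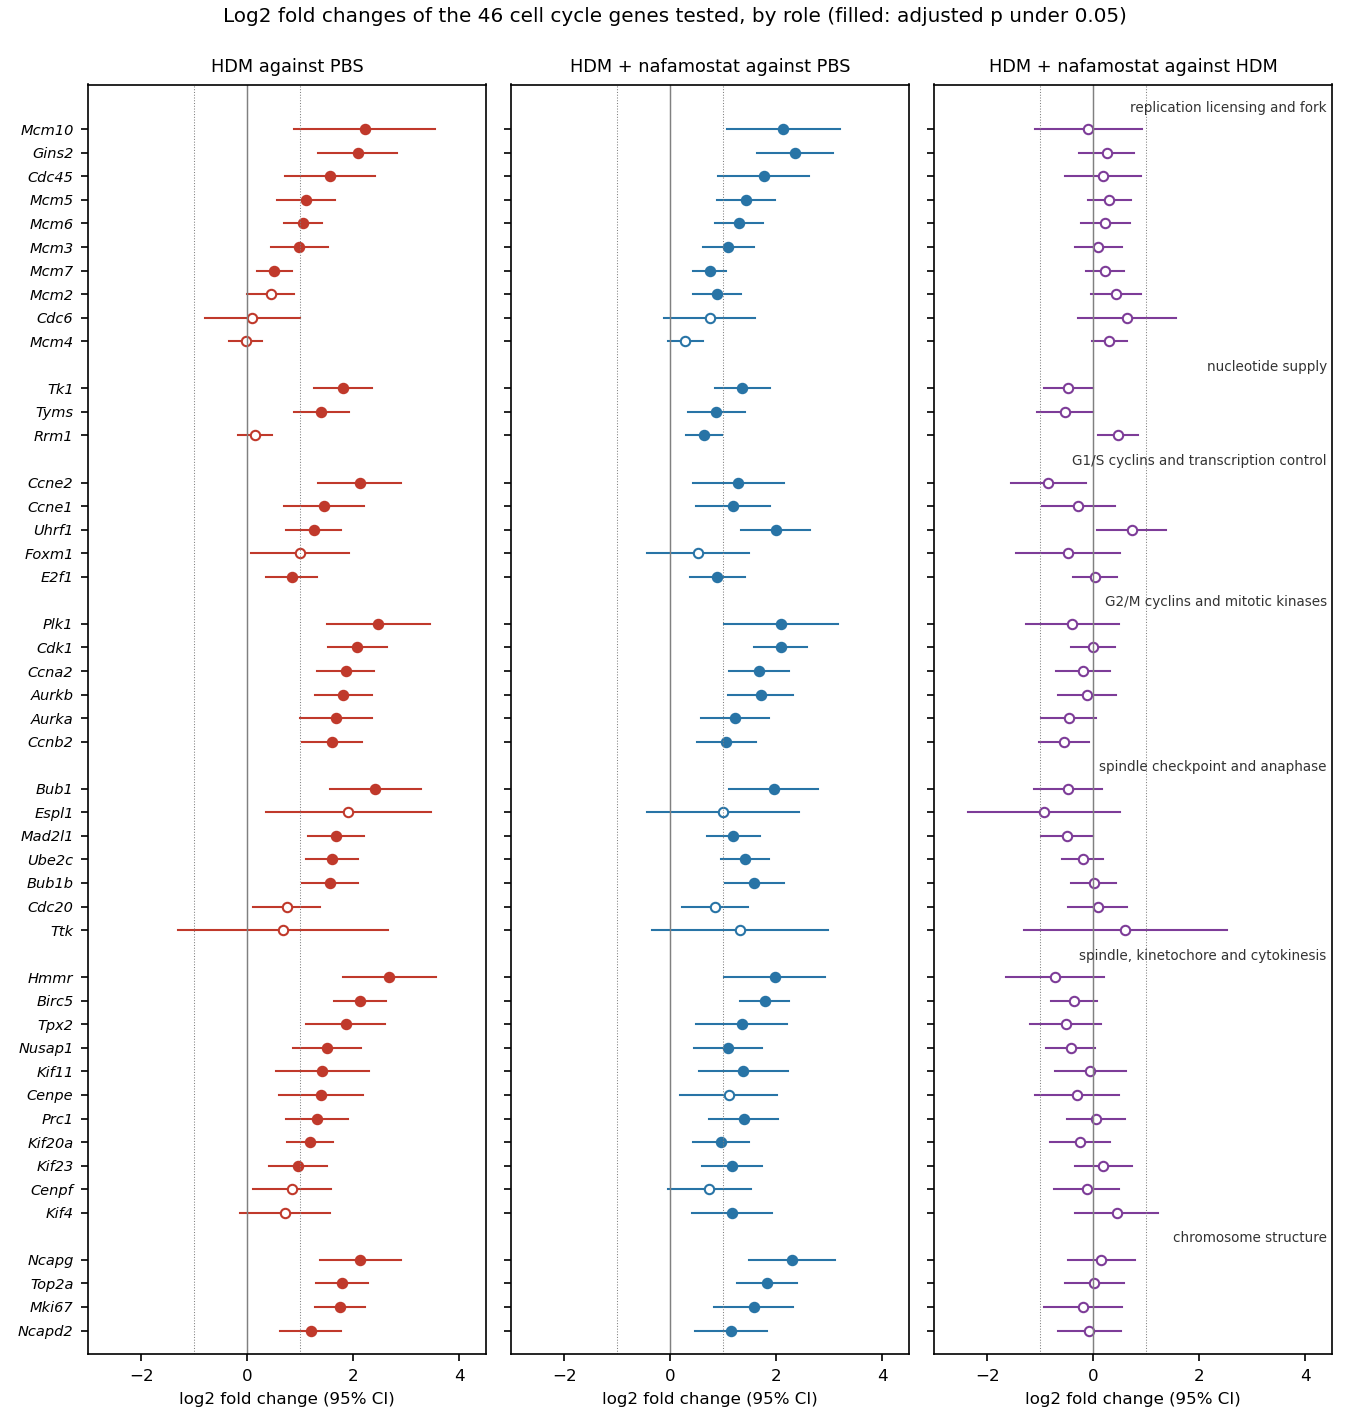
Log2 fold changes (x axis) of the 46 tested cell cycle genes (y axis, grouped by role) with 95% confidence intervals for HDM against PBS, HDM + nafamostat against PBS and HDM + nafamostat against HDM; filled points passed the adjusted p of 0.05 and dotted lines mark 2-fold. Points of the first 2 panels lie to the right of 0 but for Mcm4 in the first (−0.03), and no point of the third panel is filled.

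The helicase that unwinds DNA at the replication fork is built from Mcm2 to Mcm7, with Cdc45 and the GINS complex as its activating partners. Of the 10 replication genes tested, 7 were higher in HDM lungs than in PBS lungs and 8 were higher in HDM + nafamostat lungs, with 0 lower in either. Of all genes, 15.3% and 8.73% were higher in these comparisons and 14.2% and 5.53% lower. Mcm6 was 25, 30.2, 22.4 and 34.7 CPM in the PBS libraries. In HDM lungs Mcm6 was 49.5, 62.1 and 65.2 CPM, and in HDM + nafamostat lungs 42.8, 81.1 and 82.7 CPM. All HDM and HDM + nafamostat libraries lay above the highest PBS library, HDM + nafamostat replicate 1 being the lowest of the treated mice. The log2 fold change of Mcm6 was 1.05 (SE 0.17, adjusted p = 0.000295) for HDM against PBS and 1.30 (SE 0.21, adjusted p = 0.000431) for HDM + nafamostat against PBS, in edgeR's quasi-likelihood test as for every adjusted p here. Gins2, a GINS subunit, had the largest change with HDM among the replication genes with a mean over 5 CPM in HDM lungs: it was 0.981, 2.03, 1.54 and 2.52 CPM in the PBS libraries. In HDM lungs Gins2 was 6.59, 8.48 and 7.95 CPM, and in HDM + nafamostat lungs 7.88, 8.91 and 10.5 CPM. These levels did not overlap with PBS, and the log2 fold changes from PBS were 2.09 (SE 0.35, adjusted p = 0.000396) and 2.35 (SE 0.34, adjusted p = 0.000113). Mcm5, another helicase subunit, was 8.01, 10.9, 8.96 and 19.9 CPM in the PBS libraries. In HDM lungs Mcm5 was 23.2, 25.9 and 29.1 CPM, and in HDM + nafamostat lungs 24.5, 32.5 and 39.4 CPM, again without overlap and with log2 fold changes of 1.11 (SE 0.26, adjusted p = 0.00432) and 1.43 (SE 0.26, adjusted p = 0.00114).

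The helicase subunits did not move by the same amount. Mcm2 was 22.9, 29.5, 19.1 and 33.8 CPM in the PBS libraries. In HDM lungs Mcm2 was 27.4, 38.9 and 42.1 CPM, and in HDM + nafamostat lungs 33.5, 50.8 and 61.4 CPM. Its HDM and PBS levels overlapped, and the log2 fold change was 0.44 (SE 0.21, adjusted p = 0.124) for HDM against PBS, which missed the threshold but passed it without PBS replicate 4 (0.58, adjusted p = 0.0413). The HDM value also passed with the replicate number as a block (adjusted p = 0.0419). Against PBS, Mcm2 was higher in HDM + nafamostat lungs at 0.89 (SE 0.21, adjusted p = 0.00956), although HDM + nafamostat replicate 1 lay within the PBS range and the call was lost without replicate 3 of that group (adjusted p = 0.0876). Mcm4 was 26.3, 27.6, 31 and 28.4 CPM in the PBS libraries. In HDM lungs Mcm4 was 26.9, 28 and 29.3 CPM, and in HDM + nafamostat lungs 32.6, 39.3 and 31.9 CPM, and neither its HDM value of −0.03 (adjusted p = 0.897) nor its HDM + nafamostat value of 0.29 (adjusted p = 0.257) passed. The 95% intervals of Mcm4 were −0.35 to 0.29 and −0.05 to 0.62, so 2-fold differences lay outside them. Mcm7 differed by 0.51 in HDM lungs (adjusted p = 0.0214), a call lost when PBS replicate 1, PBS replicate 3, HDM replicate 2 or HDM replicate 3 was left out (adjusted p up to 0.142).

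Mcm3, Mcm10 and Cdc45 complete the group of genes that were higher with HDM. Mcm3 differed by 0.98 (adjusted p = 0.00831) and Mcm10, which joins the helicase to DNA polymerase, by 2.21 (adjusted p = 0.0138) at 0.667 ± 0.103 CPM in PBS lungs and 3.19 ± 1.87 CPM in HDM lungs. Both calls were lost without HDM replicate 3, with adjusted p of 0.0555 for Mcm3 and 0.0721 for Mcm10. Cdc45 differed by 1.56 (SE 0.40, adjusted p = 0.00776) for HDM and 1.76 (SE 0.41, adjusted p = 0.00715) for HDM + nafamostat against PBS, and the latter was lost without HDM + nafamostat replicate 2 (adjusted p = 0.0586). Cdc6, which loads the helicase in G1, was low at 3.08 ± 0.981 CPM in PBS, 3.34 ± 1.18 CPM in HDM and 5.13 ± 2.51 CPM in HDM + nafamostat lungs, and passed in neither comparison with PBS (adjusted p = 0.885 and 0.251). In HDM + nafamostat against HDM, 9 of the 10 replication genes had a log2 fold change above 0, with a median of 0.24, and none passed the test. Of all 14413 genes, 7053 were above 0.

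Of the 3 enzymes of nucleotide supply that could be tested, thymidine kinase (Tk1) and thymidylate synthase (Tyms) were higher with HDM and the large subunit of ribonucleotide reductase (Rrm1) was not. Tk1 was 7.68, 7.84, 4.74 and 10.6 CPM in the PBS libraries. In HDM lungs Tk1 was 21.5, 23.6 and 36.7 CPM, and in HDM + nafamostat lungs 17.4, 23.8 and 17.9 CPM. The highest value was in HDM replicate 3 and no treated library fell into the PBS range. Its log2 fold change was 1.81 (SE 0.26, adjusted p = 8.93e-05) for HDM against PBS and 1.36 (SE 0.25, adjusted p = 0.00114) for HDM + nafamostat against PBS. Tyms was 9.31, 10.2, 5.89 and 11.5 CPM in the PBS libraries. In HDM lungs Tyms was 18.9, 22.1 and 32.6 CPM, and in HDM + nafamostat lungs 11.6, 21 and 17.8 CPM, so that the lowest HDM + nafamostat library lay close to the highest PBS library. Tyms changed by 1.40 (SE 0.24, adjusted p = 0.000535) with HDM and by 0.87 (SE 0.26, adjusted p = 0.0302) with HDM + nafamostat, and the second call was lost without PBS replicate 1, PBS replicate 3, HDM + nafamostat replicate 2 or HDM + nafamostat replicate 3 (adjusted p up to 0.166).

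Rrm1 had the opposite order of the 2 HDM groups. It was 40.9, 35.6, 39.4 and 41.2 CPM in the PBS libraries. In HDM lungs Rrm1 was 38.8, 40.9 and 52.6 CPM, and in HDM + nafamostat lungs 57, 50.5 and 75.3 CPM. The PBS libraries lay close together and the HDM libraries overlapped with them, while 2 of the 3 HDM + nafamostat libraries were above all HDM libraries. The log2 fold change of Rrm1 was 0.15 (SE 0.15, adjusted p = 0.494) for HDM against PBS and 0.63 (SE 0.16, adjusted p = 0.0121) for HDM + nafamostat against PBS, and the latter was lost without HDM + nafamostat replicate 3 (adjusted p = 0.12). For HDM + nafamostat against HDM, the values were 0.47 for Rrm1 (unadjusted p = 0.019 in edgeR's quasi-likelihood test, adjusted p = 0.147), −0.47 for Tk1 (adjusted p = 0.233) and −0.54 for Tyms (adjusted p = 0.221). None of these 3 differences passed the test. That of Rrm1 passed when the libraries richest in olfactory receptor transcripts, HDM replicate 3 and HDM + nafamostat replicate 2, were both left out (0.73, adjusted p = 0.0491).

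Of the 5 genes of G1/S control, 4 were higher with HDM (15.3% of all genes) and 4 with HDM + nafamostat (8.73% of all genes). Ccne2, one of the E-type cyclins that start S phase with Cdk2, was 3.1, 1.02, 2.18 and 2.21 CPM in the PBS libraries. In HDM lungs Ccne2 was 6.48, 8.77 and 12.8 CPM, and in HDM + nafamostat lungs 3.3, 6.71 and 5.46 CPM. All HDM and HDM + nafamostat libraries were above the PBS libraries, and 2 of the 3 HDM + nafamostat libraries were below all HDM libraries. The log2 fold change of Ccne2 was 2.12 (SE 0.36, adjusted p = 0.000479) for HDM against PBS, 1.28 (SE 0.41, adjusted p = 0.0417) for HDM + nafamostat against PBS and −0.85 (SE 0.33, adjusted p = 0.155) for HDM + nafamostat against HDM, in edgeR's quasi-likelihood test. The second was lost without PBS replicate 2, PBS replicate 3, or HDM + nafamostat replicate 2 or 3 (adjusted p up to 0.196). Ccne1, the other E-type cyclin, was 2.78, 2.18, 2.05 and 2.84 CPM in the PBS libraries. In HDM lungs Ccne1 was 5.32, 4.95 and 10.2 CPM, and in HDM + nafamostat lungs 5.84, 5.61 and 5.36 CPM, with log2 fold changes of 1.45 (SE 0.35, adjusted p = 0.00584) and 1.19 (SE 0.33, adjusted p = 0.0215) from PBS. HDM replicate 3 was the highest of these libraries, and without it the HDM call was lost (1.05, adjusted p = 0.0754). The call in HDM + nafamostat lungs was lost in 5 of the 7 cases in which 1 library was left out: PBS replicate 2, PBS replicate 3 or any library of the HDM + nafamostat group (adjusted p up to 0.0732).

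Uhrf1, which brings the maintenance DNA methyltransferase to newly copied DNA, was 7.68, 9.73, 7.56 and 15.1 CPM in the PBS libraries. In HDM lungs Uhrf1 was 19.4, 25.2 and 27.8 CPM, and in HDM + nafamostat lungs 18, 48.3 and 52.5 CPM. HDM + nafamostat replicates 2 and 3 were above all HDM libraries, and replicate 1 was below them. Uhrf1 changed by 1.25 (SE 0.24, adjusted p = 0.00112) with HDM and by 1.99 (SE 0.31, adjusted p = 0.000244) with HDM + nafamostat. The difference between these 2 groups was 0.72 (SE 0.30, adjusted p = 0.187), with a 95% interval of 0.08 to 1.36. It passed without HDM + nafamostat replicate 1 (1.06, adjusted p = 0.0221) and when no filter on low counts was used (0.73, adjusted p = 0.00686), and in no other setting tried. E2f1, an activator of replication genes, changed by 0.84 (SE 0.23, adjusted p = 0.0107) with HDM and by 0.89 (SE 0.24, adjusted p = 0.0206) with HDM + nafamostat, and the second call was lost without PBS replicate 1, PBS replicate 3, or HDM + nafamostat replicate 2 or 3 (adjusted p up to 0.11). Foxm1, an activator of mitotic genes, was at 1.83 ± 0.279 CPM in PBS, 3.71 ± 1.38 CPM in HDM and 2.63 ± 1.11 CPM in HDM + nafamostat lungs and passed in neither comparison (adjusted p = 0.1 and 0.499).

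**Figure D2:**
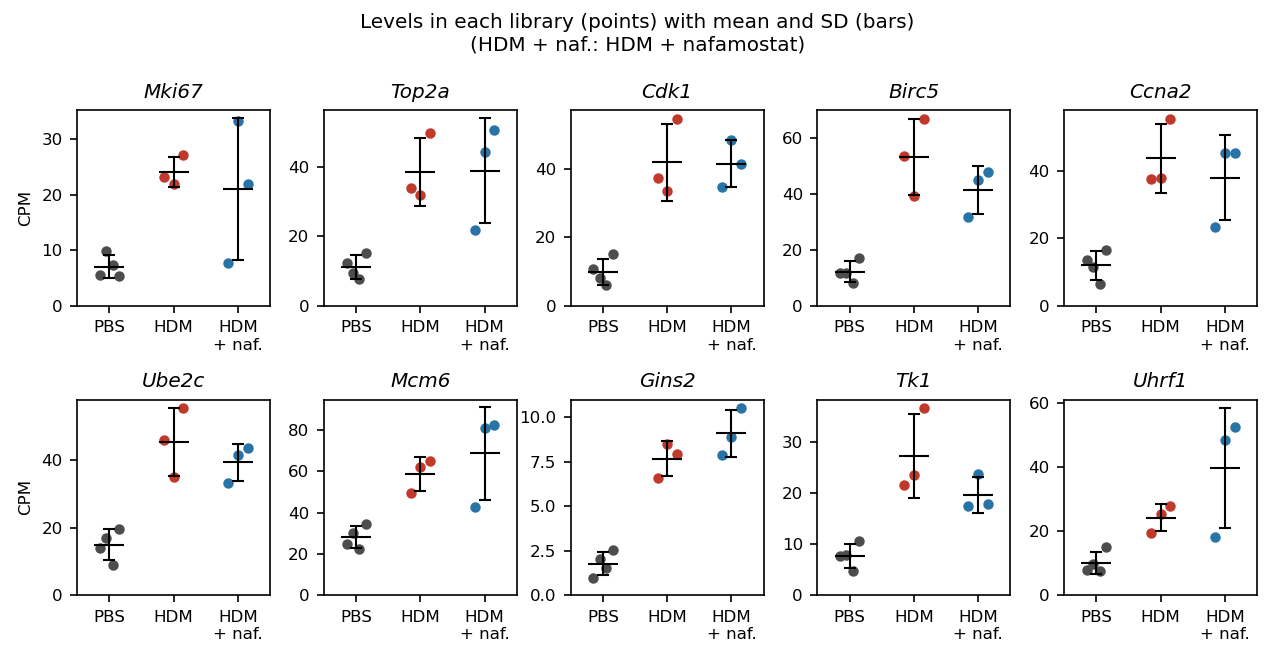
Level in CPM (y axis, from 0) of 10 cell cycle genes in each library of the PBS (4), HDM (3) and HDM + nafamostat (3) groups; points are libraries and bars give the mean and SD. Apart from Mki67, where 1 HDM + nafamostat library (7.75 CPM) sits within the PBS range, all libraries of both HDM groups are above the PBS libraries, and in Uhrf1 2 HDM + nafamostat libraries (48.3 and 52.5 CPM) are above the HDM libraries.

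All 6 cyclins and kinases of G2 and mitosis that were tested rose with HDM (15.3% of all genes), and all 6 were also higher in HDM + nafamostat lungs than in PBS lungs (8.73% of all genes). Cdk1, the kinase that starts mitosis, was 10.6, 7.99, 6.02 and 15 CPM in the PBS libraries. In HDM lungs Cdk1 was 37.5, 33.6 and 54.7 CPM, and in HDM + nafamostat lungs 34.7, 48.5 and 41.5 CPM. The levels of the HDM groups overlapped with each other and not with PBS. The log2 fold change of Cdk1 was 2.08 (SE 0.26, adjusted p = 3.08e-05) for HDM against PBS, 2.08 (SE 0.24, adjusted p = 1.15e-05) for HDM + nafamostat against PBS and −0.01 (SE 0.19, adjusted p = 0.976) between the HDM groups, in edgeR's quasi-likelihood test. Ccna2 (cyclin A2), a partner of Cdk1 and Cdk2, was 13.6, 11.3, 6.4 and 16.6 CPM in the PBS libraries. In HDM lungs Ccna2 was 37.5, 37.9 and 55.4 CPM, and in HDM + nafamostat lungs 23.2, 45.2 and 45.3 CPM, with HDM + nafamostat replicate 1 the lowest treated library. It changed by 1.86 (SE 0.25, adjusted p = 6.14e-05) with HDM and by 1.67 (SE 0.27, adjusted p = 0.000418) with HDM + nafamostat. Aurkb, the kinase of the chromosomal passenger complex, was 5.72, 3.49, 3.71 and 6.15 CPM in the PBS libraries. In HDM lungs Aurkb was 15.5, 14.3 and 20.8 CPM, and in HDM + nafamostat lungs 9.28, 19.6 and 17.4 CPM, again without overlap with PBS and with changes of 1.81 (SE 0.25, adjusted p = 8.11e-05) and 1.70 (SE 0.29, adjusted p = 0.000699).

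Ccnb2 (cyclin B2), Aurka, which matures the centrosomes, and Plk1, the Polo kinase of mitotic entry, had values between the HDM groups further below 0. Whether they differed in this from Cdk1, Ccna2 and Aurkb was not tested. Ccnb2 was 6.7, 11.8, 5.76 and 12.1 CPM in the PBS libraries. In HDM lungs Ccnb2 was 28.6, 19.8 and 34.7 CPM, and in HDM + nafamostat lungs 14.5, 19.7 and 22.4 CPM. Its change was 1.59 (SE 0.27, adjusted p = 0.000368) with HDM and 1.05 (SE 0.26, adjusted p = 0.0121) with HDM + nafamostat, the second being lost without HDM + nafamostat replicate 3 (adjusted p = 0.0781), and the difference between the HDM groups was −0.55 (SE 0.22, adjusted p = 0.172). Aurka was 6.7, 5.52, 3.33 and 11 CPM in the PBS libraries. In HDM lungs Aurka was 22.2, 14.1 and 27.4 CPM, and in HDM + nafamostat lungs 12.3, 18.7 and 15.1 CPM, with changes of 1.67 (SE 0.32, adjusted p = 0.000989) and 1.22 (SE 0.31, adjusted p = 0.0121) from PBS and −0.47 (SE 0.24, adjusted p = 0.277) between the HDM groups. Without HDM + nafamostat replicate 2, the call of Aurka in HDM + nafamostat lungs was lost (1.06, adjusted p = 0.0757). Plk1 was at 1.81 ± 1.28 CPM in PBS, 10.0 ± 4.5 CPM in HDM and 7.54 ± 4.28 CPM in HDM + nafamostat lungs, with changes from PBS of 2.48 (SE 0.46, adjusted p = 0.000873) and 2.09 (SE 0.51, adjusted p = 0.00993). The lowest HDM + nafamostat library was inside the PBS range of Plk1, and the second call was lost without HDM + nafamostat replicate 2 (adjusted p = 0.0867). Between the HDM groups, Plk1 differed by −0.40 (SE 0.41, adjusted p = 0.608). In HDM + nafamostat against HDM, the log2 fold changes of all 6 genes were below 0, with a median of −0.30, and none passed the test. Of all 14413 genes, 7360 were below 0.

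Of the 7 genes of the spindle checkpoint and anaphase, 4 were higher in each HDM group than in PBS lungs. Of all genes, 15.3% were higher in HDM and 8.73% in HDM + nafamostat lungs. Ube2c, which supplies ubiquitin to the anaphase promoting complex and carried a CHR match in its window, was 14.1, 16.9, 8.96 and 19.7 CPM in the PBS libraries. In HDM lungs Ube2c was 45.9, 34.9 and 55.4 CPM, and in HDM + nafamostat lungs 33.2, 41.6 and 43.5 CPM. The highest PBS library and the lowest treated library, which was HDM + nafamostat replicate 1, were well apart. Ube2c changed by 1.60 (SE 0.23, adjusted p = 0.00011) with HDM and by 1.41 (SE 0.22, adjusted p = 0.000263) with HDM + nafamostat. Mad2l1, a checkpoint protein that holds back anaphase, was 7.35, 9.59, 9.22 and 15 CPM in the PBS libraries. In HDM lungs Mad2l1 was 24.2, 30.7 and 45.2 CPM, and in HDM + nafamostat lungs 18, 26.4 and 25.9 CPM. All HDM + nafamostat libraries were above the PBS libraries, and 1 of the 3 was below all HDM libraries. It changed by 1.68 (SE 0.25, adjusted p = 0.000145) with HDM and by 1.19 (SE 0.24, adjusted p = 0.00223) with HDM + nafamostat, and the difference between the HDM groups was −0.50 (SE 0.23, adjusted p = 0.22). Bub1b, another checkpoint protein, was 7.35, 5.96, 3.33 and 6.46 CPM in the PBS libraries. In HDM lungs Bub1b was 16.2, 15.3 and 20.0 CPM, and in HDM + nafamostat lungs 13.7, 18.5 and 19.4 CPM, with changes of 1.56 (SE 0.25, adjusted p = 0.000268) and 1.58 (SE 0.26, adjusted p = 0.00048) from PBS.

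Bub1, the checkpoint kinase, rose from 1.52 ± 0.758 CPM in PBS to 8.16 ± 3.26 CPM in HDM lungs, a change of 2.42 (SE 0.40, adjusted p = 0.000387), and stood at 5.84 ± 0.321 CPM in HDM + nafamostat lungs, a change from PBS of 1.95 (SE 0.40, adjusted p = 0.00268). Cdc20, the activator of the anaphase promoting complex, was 4.9, 13.7, 8.2 and 11.5 CPM in the PBS libraries. In HDM lungs Cdc20 was 16.2, 11.3 and 21.3 CPM, and in HDM + nafamostat lungs 11.6, 22.1 and 17.9 CPM. Its groups overlapped, and it passed in neither comparison (0.75 (SE 0.30, adjusted p = 0.0697) for HDM and 0.84 (SE 0.29, adjusted p = 0.0635) for HDM + nafamostat), although the HDM value passed without PBS replicate 2 (adjusted p = 0.0295), without HDM replicate 2 (adjusted p = 0.0399) or without a filter on low counts (adjusted p = 0.0174). The HDM + nafamostat value of Cdc20 passed without PBS replicate 2 (adjusted p = 0.0301), PBS replicate 4 (adjusted p = 0.0426) or HDM + nafamostat replicate 1 (adjusted p = 0.0315), and without a filter (adjusted p = 0.00553). It also passed with the replicate number as a block (adjusted p = 0.00619). The kinase Ttk and the separase Espl1 had means of at most 2.02 CPM in any group, and neither passed. The HDM change of Espl1 passed with DESeq2 (adjusted p = 0.0443), with edgeR's filterByExpr (adjusted p = 0.015) and with all 3 groups in one fit (adjusted p = 0.0423). The 95% intervals of their HDM changes, −1.31 to 2.65 for Ttk and 0.35 to 3.46 for Espl1, were among the widest of the list.

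Of the 11 spindle, kinetochore and cytokinesis genes tested, 9 were higher in each HDM group than in PBS lungs (15.3% of all genes in HDM and 8.73% in HDM + nafamostat lungs). Birc5 (survivin), a chromosomal passenger protein, had the smallest p of all 46 genes for HDM against PBS. It was 11.6, 11.8, 8.07 and 17 CPM in the PBS libraries. In HDM lungs Birc5 was 53.4, 39.3 and 66.8 CPM, and in HDM + nafamostat lungs 31.8, 44.8 and 47.7 CPM. The groups did not overlap with PBS, and Birc5 changed by 2.12 (SE 0.23, adjusted p = 8.34e-06) with HDM, by 1.78 (SE 0.22, adjusted p = 2.72e-05) with HDM + nafamostat and by −0.36 (SE 0.20, adjusted p = 0.315) between them. Hmmr, a spindle assembly factor that is also a hyaluronan receptor, had the largest fold change of the 46 genes with HDM: it was 0.981, 1.45, 1.41 and 2.68 CPM in the PBS libraries. In HDM lungs Hmmr was 9.83, 5.37 and 16.7 CPM, and in HDM + nafamostat lungs 2.54, 9.35 and 7.25 CPM. It changed by 2.68 (SE 0.41, adjusted p = 0.000184) with HDM and by 1.97 (SE 0.45, adjusted p = 0.00669) with HDM + nafamostat, where 1 library lay inside the PBS range and the call was lost without HDM + nafamostat replicate 2 (adjusted p = 0.0706). Kif20a, a kinesin of cytokinesis, was 20.3, 16.1, 12.6 and 20.0 CPM in the PBS libraries. In HDM lungs Kif20a was 36.8, 31.8 and 50.6 CPM, and in HDM + nafamostat lungs 19.4, 47.6 and 33.2 CPM, with HDM + nafamostat replicate 1 inside the PBS range. It changed by 1.19 (SE 0.20, adjusted p = 0.000465) with HDM and by 0.96 (SE 0.25, adjusted p = 0.0149) with HDM + nafamostat, and the latter was lost without HDM + nafamostat replicate 2 (adjusted p = 0.145).

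Of the other 8 genes of this role, 6 were also higher with HDM. Tpx2, which activates Aurka on the spindle, changed by 1.86 (SE 0.35, adjusted p = 0.000965) with HDM, and Nusap1, which bundles spindle microtubules, by 1.50 (SE 0.30, adjusted p = 0.00157). Prc1, which bundles microtubules of the central spindle, changed by 1.32 (SE 0.28, adjusted p = 0.00215) with HDM and by 1.39 (SE 0.31, adjusted p = 0.00533) with HDM + nafamostat. The HDM calls of the kinesins Kif11 (1.42) and Kif23 (0.96) and of the kinetochore motor Cenpe (1.39) were lost without HDM replicate 3, at adjusted p of 0.0527, 0.0769 and 0.0523, and that of Kif11 also without HDM replicate 1 (adjusted p = 0.0825). Kif4, a chromokinesin, and Cenpf, a kinetochore protein, did not pass for HDM against PBS (0.71 (SE 0.40, adjusted p = 0.195) and 0.85 (SE 0.35, adjusted p = 0.0771)), though Cenpf passed without PBS replicate 2 (1.14, adjusted p = 0.0301), without a filter (adjusted p = 0.0419) and in thinned libraries (adjusted p = 0.0348). With the replicate number as a block, Cenpf also passed (adjusted p = 0.0414). In HDM + nafamostat lungs, Kif4 passed against PBS (1.17 (SE 0.36, adjusted p = 0.0352)) and Cenpe and Cenpf did not. In that comparison the calls of Tpx2 and Kif11 were lost without any 1 of 5 libraries (PBS replicates 1 to 3, HDM + nafamostat replicates 2 and 3), with adjusted p up to 0.203 and 0.127. That of Kif4 was lost without PBS replicate 2, 3 or 4 or HDM + nafamostat replicate 2 or 3 (adjusted p up to 0.161), and that of Nusap1 without PBS replicate 1 or 3 or HDM + nafamostat replicate 2 or 3 (up to 0.112). Cenpe passed without HDM + nafamostat replicate 1 (1.43, adjusted p = 0.0326) and without a filter (1.11, adjusted p = 0.0335), and Kif23 lost its call without replicate 2 of that group (0.85, adjusted p = 0.0692).

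All 4 genes of chromosome structure were higher in both HDM groups (15.3% of all genes in HDM and 8.73% in HDM + nafamostat lungs). Mki67, which encodes the proliferation antigen Ki-67 that coats mitotic chromosomes, was 5.56, 9.88, 7.3 and 5.36 CPM in the PBS libraries. In HDM lungs Mki67 was 23.2, 21.9 and 27.1 CPM, and in HDM + nafamostat lungs 7.75, 33.2 and 22 CPM. The HDM libraries were close to each other and above all PBS libraries, while the HDM + nafamostat libraries ranged over 4.29 times, from within the PBS range to the highest value of all. Mki67 changed by 1.75 (SE 0.22, adjusted p = 3.57e-05) with HDM and by 1.57 (SE 0.35, adjusted p = 0.00578) with HDM + nafamostat. The second call was lost without HDM + nafamostat replicate 2 (1.08, adjusted p = 0.0757). Top2a, the topoisomerase that untangles sister chromatids, was 12.3, 9.29, 7.56 and 15.3 CPM in the PBS libraries. In HDM lungs Top2a was 33.9, 31.9 and 49.7 CPM, and in HDM + nafamostat lungs 21.7, 44.2 and 50.5 CPM. No treated library fell into the PBS range of Top2a, and it changed by 1.78 (SE 0.23, adjusted p = 4.56e-05) with HDM and by 1.81 (SE 0.27, adjusted p = 0.000161) with HDM + nafamostat. Ncapg, a subunit of condensin, was 1.14, 2.47, 1.41 and 3.63 CPM in the PBS libraries. In HDM lungs Ncapg was 11.1, 7.63 and 10.1 CPM, and in HDM + nafamostat lungs 5.97, 11.7 and 14.3 CPM, without overlap with PBS and with changes of 2.13 (SE 0.36, adjusted p = 0.000392) and 2.30 (SE 0.38, adjusted p = 0.00054). Ncapd2, another condensin subunit, changed by 1.20 (SE 0.27, adjusted p = 0.00357) and 1.14 (SE 0.32, adjusted p = 0.0247), and its second call was lost without PBS replicate 3 or HDM + nafamostat replicate 2 or 3 (adjusted p up to 0.147).

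The genes moved together within libraries, and the replicates of a group did not stand at the same level. The median of the 46 genes, as log2(CPM + 1) relative to the mean of the PBS libraries, was 0.00, −0.00, −0.35 and 0.38 in PBS replicates 1 to 4. It was 1.06, 1.14 and 1.61 in the HDM libraries and 0.64, 1.42 and 1.24 in the HDM + nafamostat libraries. HDM replicate 3 had the highest level of its group in 40 of the 46 genes, against 37.6% of 15213 genes, and HDM + nafamostat replicate 1 the lowest of its group in 42 of the 46, against 39.2%. PBS replicate 4 was the highest PBS library in 31 of 46 (29.1% of all genes) and PBS replicate 3 the lowest in 28 of 46 (28% of all genes). Summed over all 48 measured genes, the level was 352 to 559 CPM in PBS, 898 to 1249 CPM in HDM and 725 to 1168 CPM in HDM + nafamostat lungs. Without HDM replicate 3, 29 of 46 genes passed for HDM against PBS and the median log2 fold change was 1.34.

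**Figure D3:**
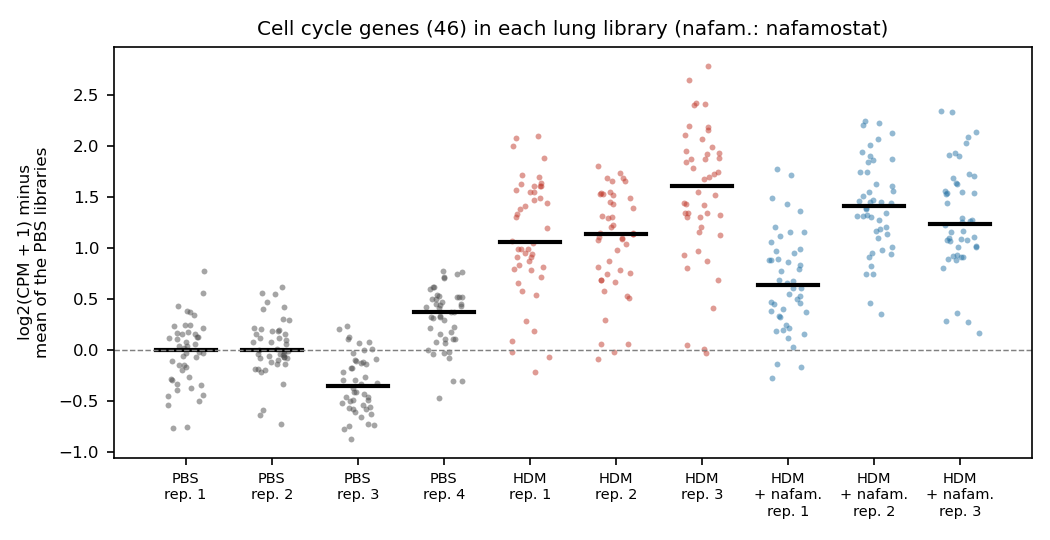
Level of each of the 46 tested cell cycle genes in each library as log2(CPM + 1) minus the mean of the 4 PBS libraries (y axis); points are genes and black bars the median of a library (x axis). The medians of the HDM libraries lie at 1.06 to 1.61, and HDM + nafamostat replicate 1 lies lowest of the treated libraries at 0.64.

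The libraries also differed in transcripts of other cells, and the part of these differences in the cell cycle genes was not tested. With HDM against PBS, 15.3% of all genes tested were higher and 14.2% lower. The lung list (Sftpc, Sftpb, Scgb1a1 and others) summed to 61600 to 77900 CPM in PBS, 55500 to 67200 CPM in HDM and 52600 to 67700 CPM in HDM + nafamostat lungs, and with HDM 4 of its 7 tested genes were lower and 1 was higher. The neutrophil markers summed to 92.8 to 195 CPM in PBS, 898 to 1360 CPM in HDM and 476 to 651 CPM in HDM + nafamostat lungs (5 of 6 higher in HDM). The eosinophil markers summed to 23.3 to 61 CPM, 280 to 372 CPM and 91 to 121 CPM in the same order (5 of 5). The 7 measured T cell markers summed to 185 to 261 CPM in PBS, 293 to 415 CPM in HDM and 260 to 323 CPM in HDM + nafamostat lungs, and 4 of the 7 were higher in HDM. The macrophage markers summed to 6560 to 11100, 11100 to 17500 and 9030 to 11300 CPM in the same order (5 of 6 tested higher in HDM), the dendritic cell markers to 154 to 173, 401 to 596 and 286 to 498 CPM (4 of 6), and the plasma cell markers to 477 to 658, 1160 to 1580 and 860 to 1020 CPM (2 of 6 higher, 1 lower). The endothelial markers summed to 2700 to 3990, 1970 to 2120 and 2490 to 2680 CPM (3 of 6 lower with HDM). The B cell markers summed to 187 to 239, 244 to 262 and 179 to 221 CPM (2 of 5 higher, 1 lower), and the fibroblast and smooth muscle markers to 1290 to 1860, 1410 to 1650 and 1580 to 2000 CPM (2 of 6 lower). The markers of erythroid precursors summed to 226 to 523, 199 to 263 and 264 to 367 CPM (1 of 3 higher, 2 lower). Liver transcripts were low, at 0.817 to 29.3, 31.1 to 174 and 1.65 to 96.7 CPM, and 7 of the 8 tested were higher with HDM. In HDM + nafamostat against HDM, 2 of 6 eosinophil and 2 of 6 plasma cell markers were lower. So were 1 of 6 neutrophil, 1 of 5 B cell and 1 of 8 liver markers. Of 6 endothelial markers 1 was higher and 1 lower, and of 7 T cell markers 0 passed. Of all genes, 0.951% were higher and 1.97% lower there. In HDM + nafamostat against PBS, 0 of 7 T cell markers were higher (8.73% of all genes). Of the macrophage markers, C1qa was at 0 in 8 or more of the 10 libraries. The markers of thymus cortex, a tissue rich in dividing cells, summed to 7.56 to 14.5 CPM in all libraries, and Rag2 and Ptcra were at 0 in 8 or more of the 10. Olfactory receptor transcripts were highest in HDM replicate 3 (1647 CPM), PBS replicate 2 (618.7 CPM) and HDM + nafamostat replicate 2 (415.6 CPM). With both such libraries of a comparison left out, 28 genes passed for HDM against PBS and 19 for HDM + nafamostat against PBS.

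Other genes of mitosis and replication, from lists made for these comparisons, were also mostly higher with HDM, where 15.3% of all genes were higher and 14.2% lower. Of 34 further mitosis genes tested, 24 were higher in HDM than in PBS lungs and 0 were lower. The median log2 fold change of the 34 was 1.51. Of 23 further genes of replication origins and forks, 13 were higher and 0 lower, with a median of 0.72. For the lists of other genes, it was not counted which genes reached the filter only together with the treated libraries. Pbk, Sgol1 and Orc1, which are among those higher, had PBS means of 0.985, 0.558 and 0.415 CPM. Sgol1 and Orc1 lay below Mcm10 (0.667 CPM), which missed the filter on PBS libraries alone. Genes that low in PBS lungs are tested mainly if they are high with HDM, so they add little to these counts. Among the mitosis genes were Cdca8, a passenger complex subunit (1.83 (SE 0.21, adjusted p = 1.68e-05)), Cks1b, a Cdk1 binding protein (2.06 (SE 0.25, adjusted p = 2.27e-05)), and Nuf2, a kinetochore protein (2.31 (SE 0.30, adjusted p = 5.01e-05)). Among the replication genes were Rfc5, a clamp loader subunit (1.23 (SE 0.17, adjusted p = 9.34e-05)), and Gins1, a partner of Gins2 (2.01 (SE 0.37, adjusted p = 0.000837)). In HDM + nafamostat against PBS, 20 of the 34 and 11 of the 23 were higher and 0 lower, while 8.73% of all genes were higher and 5.53% lower. In HDM + nafamostat against HDM, 0 of either list passed in edgeR's quasi-likelihood test (0.951% of all genes were higher and 1.97% lower). Of the 34 mitosis genes, 29 had a log2 fold change below 0 (median −0.28), as did 7360 of all 14413 genes. Genes that move together within libraries are not separate observations. At an unadjusted p under 0.05 the counts were 1 higher and 4 lower for mitosis and 1 higher and 2 lower for replication (9.99% and 11.4% of all genes).

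Among the G1 cyclins, CDKs and CDK inhibitors, which act earlier, in the decision to leave rest, the numbers that passed were near the shares of all genes, of which 15.3% were higher and 14.2% lower with HDM. Of 10 G1 cyclins and CDKs, 2 were higher with HDM and 1 was lower. Cdk2, the partner of cyclin E, changed by 0.99 (SE 0.17, adjusted p = 0.000511), Cdk7 by 0.52 (SE 0.16, adjusted p = 0.0228) and Ccnd2 (cyclin D2) by −0.52 (SE 0.14, adjusted p = 0.0123). Ccnd1 (cyclin D1) was 144, 166, 124 and 179 CPM in the PBS libraries. In HDM lungs Ccnd1 was 115, 128 and 126 CPM, and in HDM + nafamostat lungs 129.7, 133 and 122 CPM, its groups overlapped, and its log2 fold change of −0.33 missed the threshold (adjusted p = 0.0933). Of 10 CDK inhibitors and pocket proteins, 1 was higher and 2 were lower. Cdkn1a (p21) was 40.5, 45, 29.6 and 41.6 CPM in the PBS libraries. In HDM lungs Cdkn1a was 65.1, 65 and 52.6 CPM, and in HDM + nafamostat lungs 35.1, 66.1 and 63 CPM and changed by 0.62 (SE 0.16, adjusted p = 0.00875) with HDM. Cdkn1c (p57), an inhibitor linked to quiescence, was 98.4, 95.4, 81.2 and 99.3 CPM in the PBS libraries. In HDM lungs Cdkn1c was 45.4, 40.1 and 42.1 CPM, and in HDM + nafamostat lungs 52.5, 52.4 and 81.2 CPM. All its HDM libraries were below all PBS libraries, and its changes were −1.15 (SE 0.14, adjusted p = 1.78e-05) with HDM and −0.59 (SE 0.17, adjusted p = 0.0235) with HDM + nafamostat. The difference of Cdkn1c between the HDM groups, 0.54, did not pass (adjusted p = 0.1), although the groups did not overlap. Cdkn2b (p15) changed by −0.91 (SE 0.25, adjusted p = 0.0112) with HDM.

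Of 13 E2F and MuvB transcription factors tested, 4 were higher with HDM and 0 lower, beside the same shares of all genes. Mybl2, the Myb protein that joins MuvB on mitotic promoters, changed by 1.77 (SE 0.31, adjusted p = 0.000539) with HDM and by 1.78 (SE 0.33, adjusted p = 0.00113) with HDM + nafamostat, and E2f8, a repressing E2F that is itself made in S phase, by 1.98 (SE 0.37, adjusted p = 0.000929) and 2.12 (SE 0.39, adjusted p = 0.00118). Of 10 antiproliferative and quiescence genes, 1 was higher (Btg1, 0.46 (SE 0.15, adjusted p = 0.0292)) and 3 were lower with HDM, which were Klf2, a factor of resting T cells and endothelium (−0.88 (SE 0.24, adjusted p = 0.0117)), Txnip (−0.50 (SE 0.13, adjusted p = 0.01)) and Tob1 (−0.54 (SE 0.16, adjusted p = 0.0215)). Of 12 genes of the DNA damage checkpoint, 4 were higher with HDM and 0 lower. Among them were Gadd45g (1.66 (SE 0.18, adjusted p = 1.01e-05)), Chek1 (1.29 (SE 0.33, adjusted p = 0.00799)) and Brca1 (1.60 (SE 0.46, adjusted p = 0.0154)). In HDM + nafamostat against HDM, 0 genes of these 5 lists passed in edgeR's quasi-likelihood test. At an unadjusted p under 0.05, the counts there were 2 higher and 1 lower for G1 cyclins and CDKs, 1 and 0 for CDK inhibitors and pocket proteins, 0 and 2 for E2F and MuvB factors, 0 and 2 for antiproliferative genes, and 2 and 1 for the DNA damage checkpoint. Of all genes, 9.99% were higher and 11.4% lower by this measure, so these small counts say nothing particular to the lists.

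**Figure D4:**
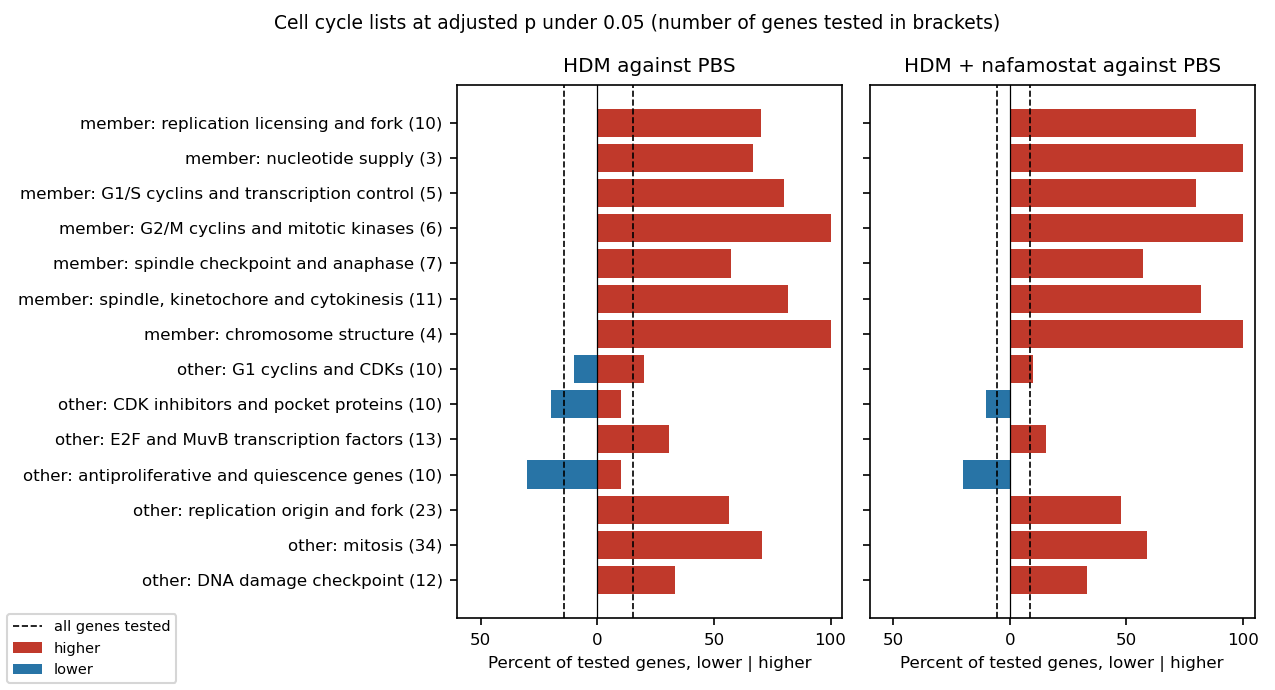
Share of tested genes (x axis, percent) that were higher (red, to the right of 0) or lower (blue, to the left) at an adjusted p under 0.05, for the 7 roles of the cell cycle genes and 7 lists of other genes (y axis, number tested in brackets), for HDM against PBS and HDM + nafamostat against PBS; dashed lines give the share of all genes tested. The bars of replication and mitosis lists pass the dashed line of 15.3% in the first panel, while G1 cyclins, CDK inhibitors and quiescence genes have bars on both sides.

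Genes that passed were found both with and without the control elements in their windows. With HDM against PBS, 15.3% of all genes tested were higher and 14.2% lower. In this comparison 15 of the 21 tested genes with a CHR match passed, with a median log2 fold change of 1.56, and 15 of the 17 tested genes without one passed, with a median of 1.39. With an E2F match, 8 of 9 passed (median 1.11), and without one 22 of 29 (median 1.56). For HDM + nafamostat against HDM, the medians were −0.01 with and −0.10 without a CHR match, and 0.22 with and −0.20 without an E2F match, with 0 genes passing in any of these sets. Of all genes, 0.951% were higher and 1.97% lower there.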

How the data were processed

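Lung RNA of 10 mice was measured with an Ion AmpliSeq transcriptome panel for mouse, 1 amplicon per gene, on an Ion S5 XL. The deposited files hold raw counts per amplicon made by the authors, whose notes name the build mm10. The methods name the Torrent Suite as the source of normalized expression values, and how the raw counts were made is not given in the sources used here. Totals were 5901279 to 9666354 counts per library. Each library is 1 numbered sample of its group in the labels, and p-values measure the spread between these libraries, which may be partly technical.

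Groups came from the sample labels. Each pair of groups was fitted on its own libraries over all genes with at least 30 counts summed, with edgeR 4.0.16 (R 4.3.3): TMM factors, quasi-likelihood F test (two-sided) and Benjamini-Hochberg adjustment over all genes tested. The threshold was an adjusted p of 0.05 at any fold, and counts at 2-fold or more are given beside it. The lists were described by counts and medians, with no set test. The code was tested on simulated data.

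The 50 members, the lists and the rules were chosen with earlier results of these data known. The rule was to give values in every library, per comparison and role, for up to 3 members with the smallest p (the group with the higher mean having 5 CPM or more), and for Mki67, Top2a, Mcm2, Ccnd1 and Cdkn1a. It was not followed for every gene. Nusap1, Bub1, Plk1 and Ncapd2, for example, met it in HDM + nafamostat against HDM and are given without values in every library. Of each list of other genes up to 6 with the smallest p may be named. Values of Mcm4, Cdc20, Cdkn1c and Aurka were added after they were seen. As deposited, 27 symbols stood as dates and were read back from the amplicon names.

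Same-numbered replicates did not deviate together (correlations from −0.232 to 0.215), so the numbers were not taken as pairs. No libraries held identical values, and the chi-square per gene between replicates was 7.618 to 22.38. Alternatives were median-of-ratios factors, library totals, DESeq2 1.42.0, no filter, filterByExpr, all 3 groups in one fit, the replicate block and each library left out. Thinned libraries, and leaving out both libraries with the most olfactory receptor counts, were added after seeing the data. Promoter windows are from RefSeq on GRCm38.p6, the assembly of mm10. Other measurements of the study are not analysed here.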

Additional observations from a re-analysis of the deposited data

Results flagged for a closer look

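The level of Mcm3 in PBS replicate 2 lay apart from the other PBS libraries. It was 6.97 CPM there, against 14.2 to 15.1 CPM in the other 3 PBS libraries, and the gap to the nearest of them was 0.887 of the range of the group, above Dixon's critical value of 0.829 for 4 samples. The 46 tested genes were checked in the PBS group, and chance alone puts about 1 in 20 groups past this value.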

How the results depend on the processing

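For HDM against PBS, the 36 genes higher at an adjusted p under 0.05 became 29 to 38 and the 32 at 2-fold 26 to 35 with single libraries left out (lowest without HDM replicate 3), with a median log2 fold change of 1.34 to 1.63 and 0 lower throughout. For HDM + nafamostat against PBS, the 38 higher became 22 to 39 and the 32 at 2-fold 18 to 37, with a median of 1.09 to 1.47 and 0 lower. Without HDM + nafamostat replicate 2 these counts were 22 and 18, and with both libraries richest in olfactory receptor transcripts left out, chosen after seeing the data, 19 and 17. Fewer libraries enter these fits. For HDM + nafamostat against HDM, 0 to 1 genes were higher, at any fold and at 2-fold, and 0 lower with single libraries left out, and the median was −0.22 to 0.12. The 1 gene was Uhrf1 without HDM + nafamostat replicate 1, and Uhrf1 without a filter. It was Rrm1 with both olfactory-rich libraries left out (log2 fold change 0.73, adjusted p = 0.0491). The causes of these changes were not tested. The other alternatives kept each count within 1.5 times of its value.

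With the replicate block, 37 genes were higher for HDM against PBS (35 at 2-fold), 0 were higher or lower for HDM + nafamostat against HDM, and 37 were higher for HDM + nafamostat against PBS (32 at 2-fold). For HDM against PBS, the block added Mcm2 (adjusted p = 0.0419) and Cenpf (0.0414) and removed Mcm10 (0.0764). For HDM + nafamostat against PBS, it added Cdc20 (0.00619) and removed Ccne2 (0.0667) and Kif4 (0.0745). Same-numbered libraries share only a number, and not every library correlated best with its own number.

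Among the genes examined one by one, signs turned in Mcm4, Cdc6, Rrm1, Cdk1, Top2a and Mki67. For HDM against PBS, Mcm4 (−0.03) was −0.0662 to 0.0172 with single libraries left out and 0.0658 in thinned libraries. Cdc6 (0.10) was −0.22 to 0.29 with single libraries left out and −0.0027 in thinned libraries, and Rrm1 (0.15) was −0.0373 with both olfactory-rich libraries left out. For HDM + nafamostat against HDM, Cdk1 (−0.01) was 0.0407 with library totals, 0.001 with the replicate block, 0.0947 with both olfactory-rich libraries left out, and −0.15 to 0.22 with single libraries left out. Top2a (0.02) was −0.0411 with the replicate block, −0.0327 in thinned libraries and −0.22 to 0.29 with single libraries left out, and Mki67 (−0.20) was −0.69 to 0.18 with single libraries left out. The depth left Ttk and Espl1, at means of at most 2.02 CPM, with HDM intervals that held changes both under and over 2-fold.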
